A study of Eptesicus fuscus and Canis lupus familiaris and Equus caballus with 4 samples.

Results

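One stretch of a bat contig carried a row of 5 small RNA hairpins. They lay on contig ALEH01135445.1 of the big brown bat, Eptesicus fuscus, and were chosen by contig and position, as every candidate there with a start from base 764 to base 9085. That gave 5 candidates of the 762 in the bat list and of 1453 in the bat, horse and dog lists together. The contig held no candidate outside these limits. The row was selected on the reads and distinct reads of its candidates, and as a cluster whose 5 loci and strand were known. Those values describe the members and are not tested.

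The study sequenced small RNA of 50 bp single-end Illumina reads from snap-frozen adult testes of the bat, the horse and the dog. Groups are species, with 1 analysed library each, and no treatment is named. A library of a second bat was not used here. A hairpin candidate is a place in the genome that gave small RNA reads and whose RNA is predicted by the program miRanalyzer to form a stem and loop. Such a list holds no protein-coding genes, so the tissue could not be checked against testis marker genes.

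Clustered miRNAs are often cut from a shared precursor transcript, first by Drosha in the nucleus and then by Dicer in the cytoplasm. Of the resulting duplex, usually one strand is kept by an Argonaute protein, and the bases at its start, the seed, pair with target mRNAs. The mature sequences on this contig are recognised, from general knowledge of mammalian miRNAs, as members of the miR-532 and miR-188 cluster, which in human lies within the CLCN5 gene on chromosome X. The sources used here hold no table of miRNA sequences, so the names rest on that knowledge alone.

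The mature sequences are shown because they carry the identity of each hairpin. They are given as DNA letters from the deposited bat list, on the plus strand, with the seed (bases 2 to 8) in capitals. The sources used here do not give the build of the contig.
Candidate_779: cATGCCTTgagtgtaggaccgtt
Candidate_777: cATCCCTTgcatggtggagggt
Candidate_781: aATGCACCtgggcaaggattccgag
Candidate_778: aATGCACCtgggcaaggattctga
Candidate_780: tACCCATTgcatatcggagttgt

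Candidate_779 is recognised as miR-532-5p, Candidate_777 as miR-188-5p and Candidate_780 as miR-660-5p. Candidate_781 and Candidate_778 belong to the family of miR-500 and miR-502, with the mature sequence on the 3' arm, and which of them is miR-500 and which miR-502 was not assigned. The RefSeq gene table of another assembly of this bat, DD_ASM_mEF_20220401, lists MIR532, MIR188, MIR502, MIR500 and MIR660 as 5 neighbouring genes with no other gene between them. In that table the run is flanked by USP27X next to MIR532 and by LOC129148601 and then CLCN5 beyond MIR660. No position was carried over from that assembly, and no annotation of the contig itself was used, so no exon or intron is stated.

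The full hairpins are shown because their length, their arms and their likeness are described below. The listed mature sequence is in capitals.
Candidate_779, ALEH01135445.1:764-854: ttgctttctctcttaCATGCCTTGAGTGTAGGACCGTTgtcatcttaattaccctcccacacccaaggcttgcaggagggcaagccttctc
Candidate_777, ALEH01135445.1:1126-1264: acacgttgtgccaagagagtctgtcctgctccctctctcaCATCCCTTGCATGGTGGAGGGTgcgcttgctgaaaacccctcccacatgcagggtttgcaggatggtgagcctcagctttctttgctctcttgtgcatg
Candidate_781, ALEH01135445.1:5080-5224: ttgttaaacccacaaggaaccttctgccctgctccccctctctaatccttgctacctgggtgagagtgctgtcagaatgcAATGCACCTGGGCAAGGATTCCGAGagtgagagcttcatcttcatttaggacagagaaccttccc
Candidate_778, ALEH01135445.1:6894-6996: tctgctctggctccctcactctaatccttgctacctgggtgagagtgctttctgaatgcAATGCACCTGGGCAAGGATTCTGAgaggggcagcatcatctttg
Candidate_780, ALEH01135445.1:8975-9085: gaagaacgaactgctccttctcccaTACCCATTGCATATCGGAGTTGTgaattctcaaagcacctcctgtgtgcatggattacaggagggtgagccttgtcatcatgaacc

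The read counts of the 5 hairpins spanned more than an order of magnitude. Candidate_779, the miR-532-5p hairpin at the start of the row, had 151 reads (95% exact Poisson interval 128 to 177). Candidate_777, the miR-188-5p hairpin next to it, had 4 reads (1.09 to 10.2). The highest and lowest counts of the row thus sat on neighbouring hairpins. The ratio of these counts was 37.8.

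The remaining hairpins lay between these extremes. Candidate_781 had 55 reads (41.4 to 71.6), Candidate_778 had 15 (8.40 to 24.7) and Candidate_780, the miR-660-5p hairpin, had 39 (27.7 to 53.3). By reads the order was thus Candidate_779, Candidate_781, Candidate_780, Candidate_778 and Candidate_777, and the ratio of the first to the second was 2.75. The intervals describe the counting error of each count in 1 library. They are no test of the order, and no replicate was analysed to give the spread between bats.

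**Figure D1:**
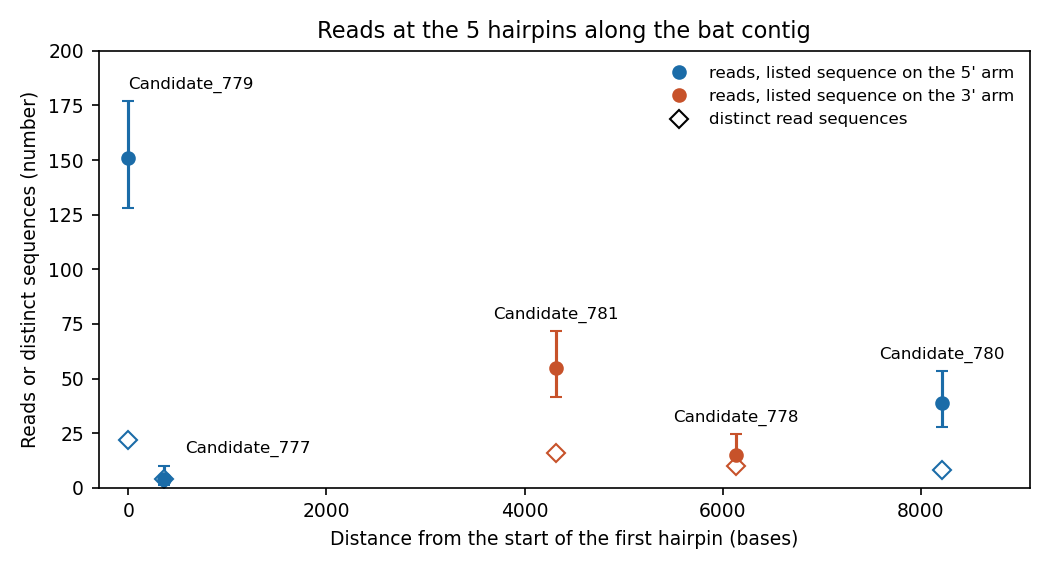
Reads (filled circles, with 95% exact Poisson intervals) and distinct read sequences (open diamonds) of each hairpin against its distance in bases from the start of the first hairpin, coloured by the arm of the listed mature sequence. Candidate_779 stands at 151 reads and its neighbour Candidate_777, 362 bases further on, at 4.

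Together the hairpins had 264 reads (233 to 298). That was 0.296% of the 89091 reads summed over the bat list (exact Clopper-Pearson 95% interval 0.262 to 0.334), or 0.337% when reads of identical mature sequences were counted once. Candidate_779 alone gave 57.2% of the reads of the row (51.0 to 63.2). Candidate_781 gave 20.8% (16.1 to 26.2), Candidate_780 gave 14.8% (10.7 to 19.6), Candidate_778 gave 5.68% (3.21 to 9.20) and Candidate_777 gave 1.52% (0.414 to 3.83).

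The reads that selected the row place it in the bat list as follows. Its median was 39 reads, and the other bat candidates had a median of 3. Candidate_779 was exceeded by 96 of the 762 candidates, Candidate_781 by 131, Candidate_780 by 157, Candidate_778 by 221 and Candidate_777 by 332. The top bat candidate had 9487 reads, far above any hairpin of the row. At least 10 reads were found for 4 of the 5 members, where 33.5% of all bat candidates reached that count. All 5 prediction models called 4 of the 5 members, against 51.6% of bat candidates, and Candidate_777 was called by 4 models. Nothing is read from these medians, ranks and shares, since the members were picked with their reads known.

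Distinct read sequences, the number of different reads at a hairpin, followed the counts in part. Candidate_779 had 22 distinct sequences, Candidate_781 had 16, Candidate_778 had 10, Candidate_780 had 8 and Candidate_777 had 4. Candidate_780 had more reads than Candidate_778 but fewer distinct sequences, with 4.88 reads per distinct sequence at Candidate_780 and 1.5 at Candidate_778. At Candidate_779 there were 6.86 reads per distinct sequence and at Candidate_781 3.44. Each of the 4 reads of Candidate_777 was a different sequence.

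Other candidates with similar reads give a scale for these numbers. Nothing is read from the comparison, since the distinct reads were known when the row was picked. Other bat candidates with between 0.5 and 2 times the reads of Candidate_779 numbered 58 and had a median of 27 distinct sequences. For Candidate_780 the 83 such candidates had a median of 10. The 109 candidates around Candidate_778 had a median of 7 distinct sequences, below its own 10, and 79.8% of them had fewer than it did. Around Candidate_781, 69 candidates had a median of 14, and around Candidate_777, 266 had a median of 2. Of the set around each, 37.9% had fewer distinct sequences than Candidate_779, 53.6% than Candidate_781, 25.3% than Candidate_780 and 77.8% than Candidate_777.

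**Figure D2:**
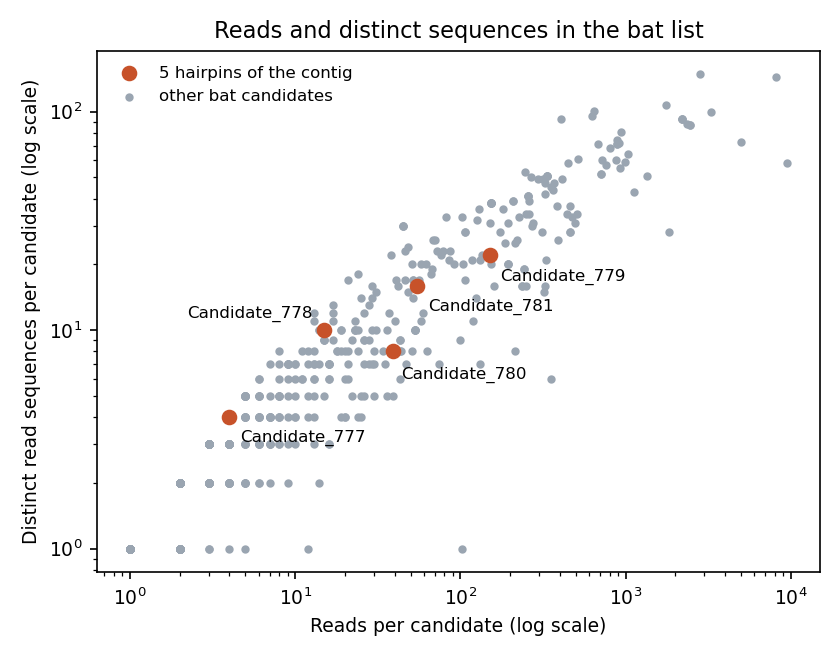
Distinct read sequences against reads for every bat candidate, both on log scales, with the 5 hairpins of the contig as large labelled points and other candidates as small grey points. The 5 hairpins run from 4 reads and 4 distinct sequences at Candidate_777 to 151 reads and 22 distinct sequences at Candidate_779. Candidate_777 lies on the upper edge, since distinct sequences cannot outnumber reads.

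The listed sequence came from the 5' arm at 3 hairpins and from the 3' arm at 2. In folds predicted by RNAfold, the sequences of Candidate_779, Candidate_777 and Candidate_780 paired with bases downstream, and those of Candidate_781 and Candidate_778 paired with bases upstream. Across the bat list 46.3% of candidates had the sequence on the 5' arm. The 5' arm hairpins held 194 of the 264 reads, or 73.5% (67.7 to 78.7), and the 3' arm hairpins 70 reads, or 26.5% (21.3 to 32.3). This order rested on Candidate_779, without which the 5' arm hairpins held 43 of 113 reads, or 38.1% (29.1 to 47.7), and the 3' arm hairpins 70. Those 70 reads are the sum of 2 similar hairpins that may include the same reads, as described below. They would be 55 if every read of Candidate_778 was also counted at Candidate_781, still above the 43 of the 5' arm hairpins. The intervals take each read as counted once and none was made for 55 reads, so the turned order is not secure. The list gives 1 mature sequence per candidate, but a locus can hold more than 1 candidate, since the 762 bat candidates lay at 669 loci. The 5 loci of the row held 5 candidates, so no second sequence was listed at any of them. Any reads from the opposite arm within the count of a candidate could not be seen separately.

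All 5 predicted folds were single stems that took in most of the mature sequence. Of its bases, 17 of 23 were paired at Candidate_779, 17 of 22 at Candidate_777, 20 of 25 at Candidate_781, 20 of 24 at Candidate_778 and 17 of 23 at Candidate_780. The other bat candidates had a median of 19 paired bases. Folding energy was -33.7 kcal/mol for Candidate_779, -57.5 for Candidate_777, -46.3 for Candidate_781, -39.3 for Candidate_778 and -35.1 for Candidate_780. Per 100 bases it ran from -41.4 kcal/mol at Candidate_777 to -31.6 at Candidate_780, and the other bat candidates had a median of -41.5. Every member thus folded no more strongly per base than the middle of the list, and Candidate_780 more strongly than only 9.45% of it. Hairpin GC content was 48.6% to 55.4%, against a median of 55.6% for the other candidates.

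**Figure D3:**
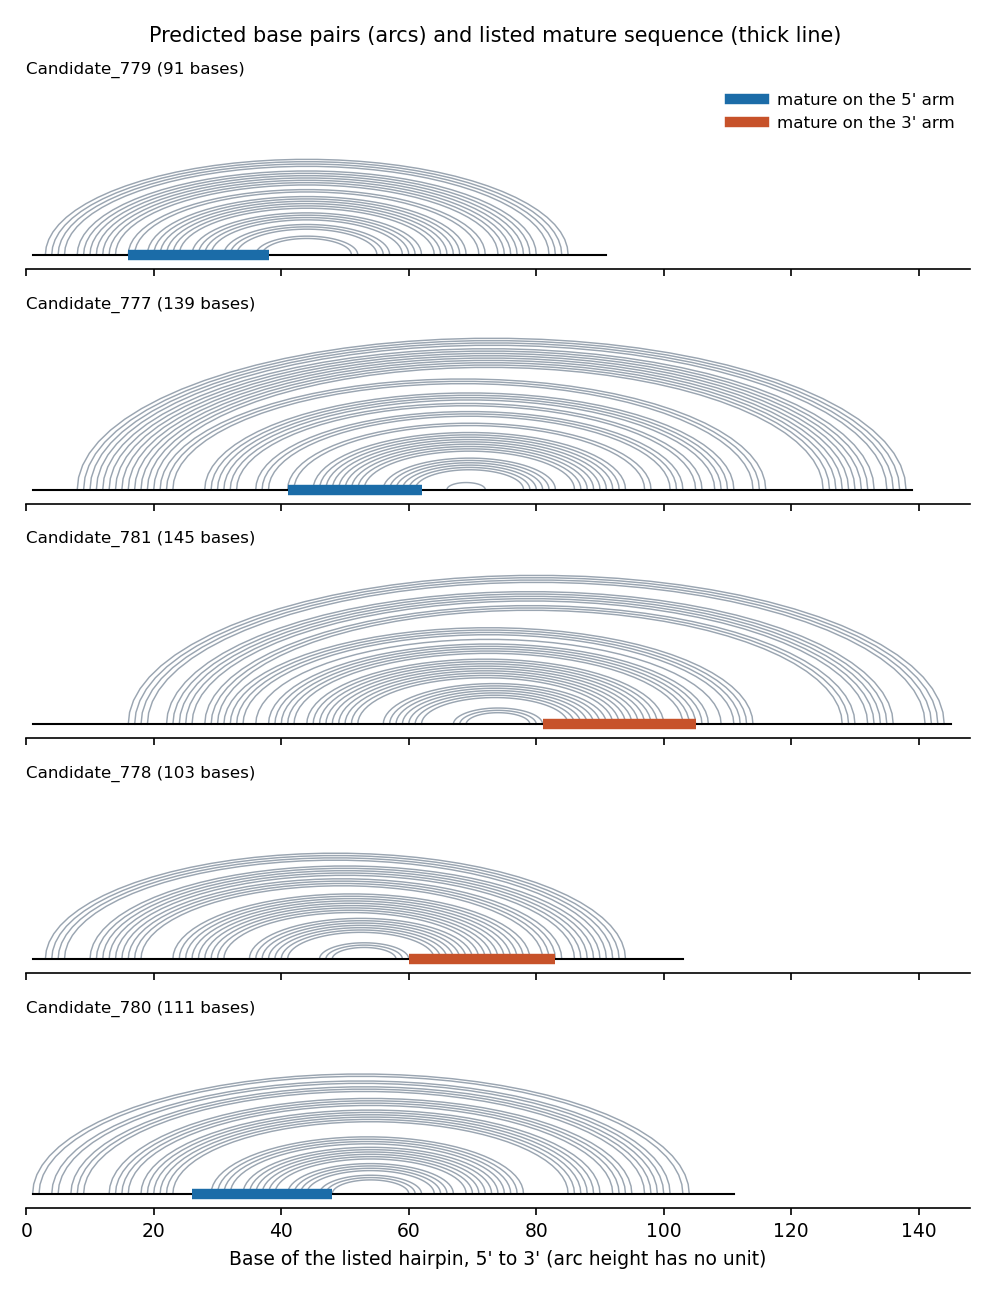
Predicted base pairs of each hairpin as arcs over its bases, 5' to 3', with the listed mature sequence as a thick line coloured by arm. The mature sequence lies left of the loop at Candidate_779, Candidate_777 and Candidate_780 and right of it at Candidate_781 and Candidate_778.

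Mature sequences were 22 to 25 bases long, where the median of the other candidates was 23. Candidate_780 began with T, that is U in the RNA, which made 1 of 5 members, against 47.2% of bat candidates. Candidate_779 and Candidate_777 began with C, and Candidate_781 and Candidate_778 with A. All 5 hairpins lay on the plus strand, as did 45.3% of bat candidates. Most clusters of neighbouring bat loci, described below, likewise lay on a single strand, so that share is no measure for a row.

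Spacing along the row was uneven. Between the hairpins of Candidate_779 and Candidate_777 there were 271 bases, between Candidate_777 and Candidate_781 3815, between Candidate_781 and Candidate_778 1669, and between Candidate_778 and Candidate_780 1978. From the first base of the first hairpin to the last base of the last the row spanned 8322 bases, of which the hairpins took 589. Counting mature start to mature start, the neighbours at the head of the row were 387 bases apart.

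Few clusters in the bat list held as many loci, but the row was picked as a cluster with its 5 loci known. Its place among the clusters is therefore a description and not a result. With loci joined when at most 10000 bases lay between them, the 669 bat loci gave 56 clusters of 2 or more loci, and 43 of these had 2 loci. The contig's 5 loci were exceeded by 2 clusters, of 9 and 6 loci, and no other cluster had 5. By reads it stood lower, with 25 clusters above its 264 reads, against a cluster median of 140. Bat contigs end where the assembly breaks, so a row can be longer than its contig shows.

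One pair of hairpins stood apart in similarity. Candidate_781 and Candidate_778 were identical at 87.4% of 103 aligned positions, with 12 mismatches and 1 gap. Over the other 9 pairs identity ran from 51.5% to 66.7%. The next were Candidate_779 with Candidate_777 at 66.7%, Candidate_777 with Candidate_780 at 63.7% and Candidate_777 with Candidate_778 at 61.5%, followed by Candidate_779 with Candidate_780 at 61.3%. Pairs of hairpins are not independent, and these values carry no test.

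Within the close pair the mature sequences were the same over the first 21 bases. Counted from 1 at the 5' end, the single difference over their shared length was C22T, with the base of Candidate_781 first. The longest identical run of the hairpins was on the arm opposite to the listed sequence, at bases 40 to 70 of Candidate_781 and 19 to 49 of Candidate_778. That run of 31 bases is shown because a read lying wholly within it could not be placed at either locus alone.
Shared run: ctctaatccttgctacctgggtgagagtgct

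Reads lying within the first 21 mature bases of this pair could likewise not be told apart. In the bat list, 65 of 68 sets of candidates with an identical mature sequence had equal counts, so reads matching several places were as a rule counted at each. The counts of 55 and 15 may therefore include the same reads. If every read of Candidate_778 was also counted at Candidate_781, the pair had 55 reads and not 70, and the row 249. Even then 40 of the reads of Candidate_781 were not shared with Candidate_778.

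The mature sequences of the 5' arm hairpins began at matching places. In the alignment of Candidate_779 with Candidate_777, base 16, where the first mature sequence begins, stood opposite base 41, where the second begins. Aligned with Candidate_780, the mature starts of both stood opposite base 26, which is again where the mature sequence of Candidate_780 begins. By contrast, the mature start of Candidate_777 stood opposite base 44 of Candidate_781, whose listed sequence begins at base 81. In Candidate_778, whose listed sequence begins at base 60, it stood opposite base 23. The mature start of Candidate_779 stood opposite base 44 of Candidate_781 too, but opposite base 19 of Candidate_778. These positions are on the arm of the close pair for which no sequence was listed. Hairpins aligned end to end tend to have their like arms opposite each other, so nothing is read from that.

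Seeds set 4 kinds apart. Candidate_781 and Candidate_778 shared the seed ATGCACC. The seed of Candidate_777, ATCCCTT, differed from that of Candidate_779, ATGCCTT, by the single substitution G4C, with the base of Candidate_779 first and positions counted along the mature sequence. The seed of Candidate_780, ACCCATT, differed from that of Candidate_777 by T3C and C6A, with the base of Candidate_777 first. Over 18 bases Candidate_779 and Candidate_777 had 5 mismatches and Candidate_777 and Candidate_780 had 6, so sequences with near seeds still differed along their length.

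**Figure D4:**
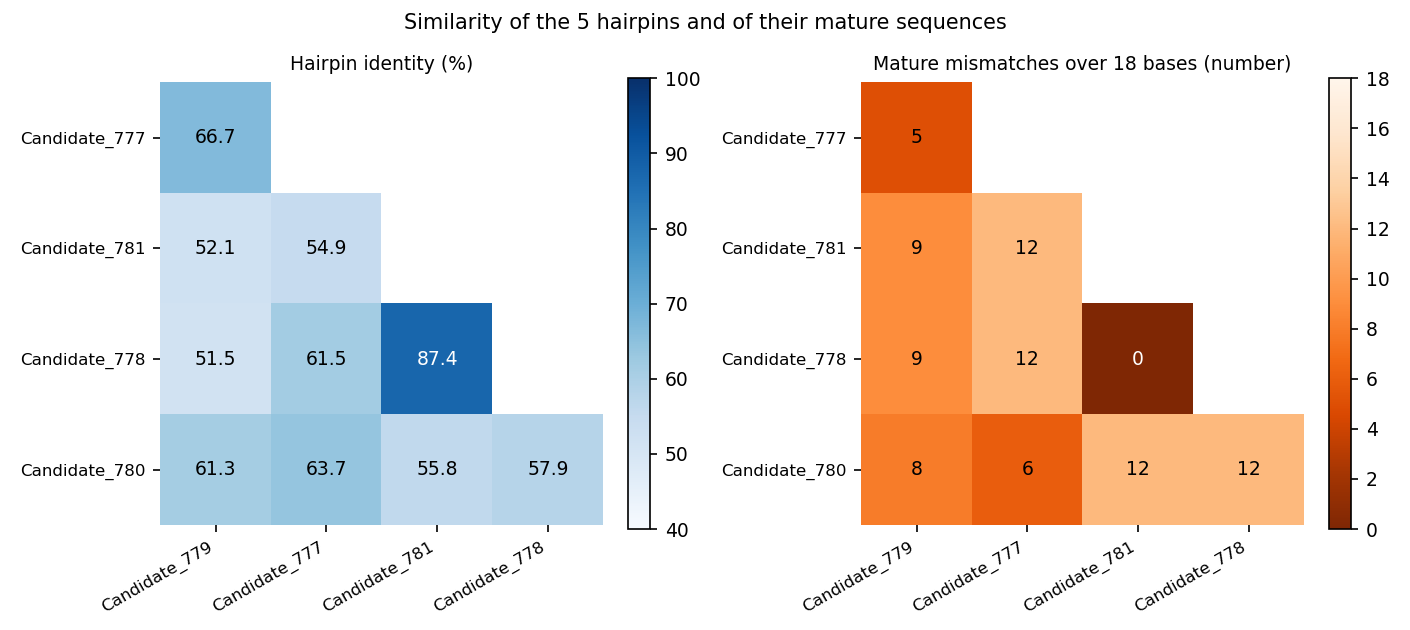
Identity of each pair of hairpins in percent (left) and fewest mismatches between their mature sequences over 18 bases (right), with darker cells for more similar pairs. Candidate_781 with Candidate_778 stands out at 87.4% and 0 mismatches, and the next pair, Candidate_779 with Candidate_777, has 66.7% and 5.

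No member had a close relative elsewhere in the bat list. At 80% identity or more over at least 50 bases, 2 of the 5 hairpins had a relative at another locus, namely each other in the close pair, against 48.8% of all bat candidates. On another contig, 0 of the 5 had one, against 48.6%. Of the 762 candidates, Candidate_781 and Candidate_778 were the 2 whose relatives all lay on their own contig. With the limit at 70% identity all 5 had a relative, against 61.3% of bat candidates, and again every relative was a member of the row. At that limit Candidate_777 was joined to Candidate_779 and to Candidate_780. The title of the series asks about miRNAs from DNA transposons, and these counts do not test the origin of a hairpin.

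Seeds were compared in the same way. A seed was shared with a candidate at another locus by 2 of the 5 members, the close pair, and by 38.1% of bat candidates. No member shared its seed with a candidate off the contig. Outside the row, the closest mature sequence to Candidate_779 was Candidate_251, with 1 read and 4 mismatches over 18 bases. The fewest mismatches to any bat candidate outside the row were 6 for Candidate_777, 6 for Candidate_781, 6 for Candidate_778 and 7 for Candidate_780.

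The horse and dog lists held no counterpart of any member. With at most 2 mismatches over 18 bases, 0 of the 5 mature sequences matched one of the 439 horse candidates, and 0 of the 5 one of the 252 dog candidates. The background was low, at 1.97% of bat candidates matched in the horse and 3.02% in the dog, so a count of 0 among 5 is near it. With an identical seed, 0 of the 5 matched in either list, where 6.3% of bat candidates matched in the horse and 3.67% in the dog. By hairpin, at 80% over 50 bases, 0 of the 5 matched either list, against 3.67% for the horse and 5.38% for the dog. Without any mismatch over 18 bases, 0 of the 5 matched either list, against 0.656% of bat candidates for the horse and 2.1% for the dog.

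The nearest horse and dog sequences were far off. The fewest mismatches over 18 bases in the horse were 7 for Candidate_779, 6 for Candidate_777, 6 for Candidate_781, 6 for Candidate_778 and 7 for Candidate_780. In the dog they were 6, 6, 7, 7 and 6 in the same order. The first 18 mature bases were not found inside any horse or dog hairpin with up to 2 mismatches. Both lists held candidates on chromosome X, 59 in the horse and 36 in the dog. The deposited bat list is labelled as new microRNAs, although the members are recognised here as known mammalian miRNAs. Beyond that label, the sources used here do not say whether known miRNAs were removed from any list. A missing match thus shows what the lists hold and not what the testes of these animals express.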

How the data were processed

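Small RNA of 1 bat, 1 horse and 1 dog testis library was used as lists of hairpin candidates from miRanalyzer, per the description deposited with them. Counts are the authors' raw numbers of reads and of distinct read sequences. The score in the deposited lists says how many of 5 models called a candidate. The deposited fraction, reads over all reads in the authors' analysis to 3 decimals, was not used for a comparison. Per the submitters' processing notes the build is CanFam 3.1 for all species, so the sources used here do not give the bat build, nor trimming and mapping.

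Hairpin pairs were aligned by Needleman-Wunsch in biopython 1.88 (match 1, mismatch -1, gap opening -3, extension -1, end gaps -0.5 a base). Relatives came from blastn 2.17.0 (word size 7, E-value 0.001) and folds from RNAfold 2.7.2. Mature sequences matched if 18 bases held at most 2 mismatches, with starts shifted by up to 2. Intervals are exact, at 95%, for counting error only. Scripts ran in Python 3.11.15 with scipy 1.17.1 and were tested on simulated sequences. With 1 library per species no test was run. Every member is named, and Candidate_251 besides, which was chosen after its values were seen. Members and settings were chosen with earlier results of these data known.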

Additional observations from a re-analysis of the deposited data

How the results depend on the processing

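Of 20 alternative settings, 15 left the value within its counting interval or count limit and 5 did not. Several of the 15 could not have moved, so the tally is no measure of robustness. Asking for no mismatch is nested in the 0 matches already found with up to 2. Gaps of up to 50000 bases could add no locus, as the contig held no other candidate. No member shared its whole mature sequence with another candidate, so counting identical sequences once changed nothing. The median identity of the hairpin pairs was 59.6% over 10 pairs and 77.8% over the 4 pairs with a local blastn alignment, which by construction keeps only alignable stretches. Members with a relative at another locus numbered 2 at 80% identity, 0 at 90% and 5 at 70%. The largest group of loci on the contig was 5 with gaps of up to 10000 bases and 3 with gaps of up to 3000, since 3815 bases separate Candidate_777 from Candidate_781. The reads of the row were 264, and 260 without Candidate_777, which alone had under 10 reads and under 5 models. Hairpins with the listed sequence on the 5' arm held 73.5% of the reads. They held 38.1% with Candidate_779 left out, which turned the order of the 2 kinds of hairpin. The 3' arm hairpins were Candidate_781 and Candidate_778, whose counts may include the same reads. No interval allows for that, so the turned order is not secure. Leaving Candidate_778 out gave 249 reads. Both settings were chosen after seeing the data, as was the search for mature sequences anywhere in a horse or dog hairpin. The 0 matches in horse and dog held under each rule tried. No paired analysis was possible because each species had 1 analysed library, and for the same reason no library could be left out. Depth limits Candidate_777 most, with 4 reads.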
